A study of Danio rerio with 30 samples.

Results

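Loss of atf6 on top of the loss of other unfolded protein response factors was examined in 2 pairs of zebrafish genotypes at 12 hours post fertilization (hpf). Members were chosen by genotype. Within each library set, the libraries are those of embryos that lacked the same factors with and without atf6. They number 5 of the 30 samples in the series and hold 17745 of the 64631 cells kept in the 16 libraries at 12 hpf. In library set A, atf6+creb3l2+creb3l1 embryos (1 library) were set against creb3l2+creb3l1 embryos (1 library). In set B, xbp1+atf6+creb3l2+creb3l1 embryos, called quadruple here (2 libraries), were set against xbp1+creb3l2+creb3l1 embryos (1 library). All 5 libraries share the loss of creb3l1 through a stable mutant line and of creb3l2 through injection of Cas9 and guide RNA at the 1-cell stage. Loss of xbp1 and atf6 was also by injection. Injected embryos (crispants) are mosaics whose extent of editing was not measured here. Every library pooled about 30 whole TL/AB embryos raised at 27 °C. Neither pair has an uninjected control, and nothing states that the quadruple replicates came from separate clutches, so p-values measure the spread between these libraries, which may be technical.

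The endoplasmic reticulum (ER) folds secreted proteins. When unfolded proteins collect there, the unfolded protein response raises transcription of chaperones, degradation machinery and transport components. ATF6 is a transcription factor held in the ER membrane; on stress it moves to the Golgi, where the site-1 and site-2 proteases (mbtps1, mbtps2) release its cytosolic part, which enters the nucleus and in mammals turns on ER chaperones such as HSPA5. XBP1 is activated through a separate sensor, IRE1 (ern1), and CREB3L1 and CREB3L2 are relatives of ATF6 that are cleaved by the same proteases. The series asks which of these factors control the secretory machinery of the notochord, a rod that secretes a thick matrix, and of the hatching gland, whose cells fill with proteases for egress from the egg envelope.

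After removal of barcodes with fewer than 1000 UMIs (unique molecular identifiers, each one captured transcript) or more than 10% mitochondrial UMIs, the 5 libraries held between 1784 and 4439 cells. They summed to between 37268166 and 82300829 UMIs. Median UMIs per cell ran from 13701 in the creb3l2+creb3l1 library to 21862.5 in quadruple replicate 2. No pair of libraries shared more than 7 barcodes. Set A was written by Cell Ranger 3.1.0 and set B by 6.1.2, so that set, software and loss of xbp1 cannot be told apart; every comparison below was made within a set. Counts were summed per library, over all cells or over the cells of a tissue class, and are given as CPM, the usual scaled share of that sum. In such sums fewer cells of a type and less RNA per cell cannot be told apart.

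The targeted transcript was lower wherever atf6 was targeted. Over all cells atf6 was at 65.2 CPM in creb3l2+creb3l1 embryos and 10.7 CPM once atf6 was also lost. In set B it was at 37.2 CPM in xbp1+creb3l2+creb3l1 embryos and at 8.69 and 13.0 CPM in quadruple replicates 1 and 2. The groups did not overlap, and the log2 fold change was -2.23 (SE 0.22, adjusted p = 0.0233, edgeR quasi-likelihood test with Benjamini-Hochberg adjustment over 16866 genes). This fit joined both pairs in 1 model with a term for the set and had 2 residual degrees of freedom. With 1 library left out the log2 fold change ran from -2.61 to -1.92; the call was lost without quadruple replicate 1 (-2.18, adjusted p = 0.929, edgeR) and in a fit of all 16 libraries at 12 hpf (adjusted p = 0.308, edgeR).

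Lower atf6 was seen in every tissue class that had enough cells to test. In all 18 such classes atf6 was lower in the atf6-targeted library of set A and in both quadruple libraries than in the respective control. Across classes between 8.66% and 26.9% of the control level was left in set A, between 13.4% and 32.1% in quadruple replicate 1 and between 10.9% and 57.2% in replicate 2. The drop passed the test in 13 of the 18 classes.

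**Figure D1:**
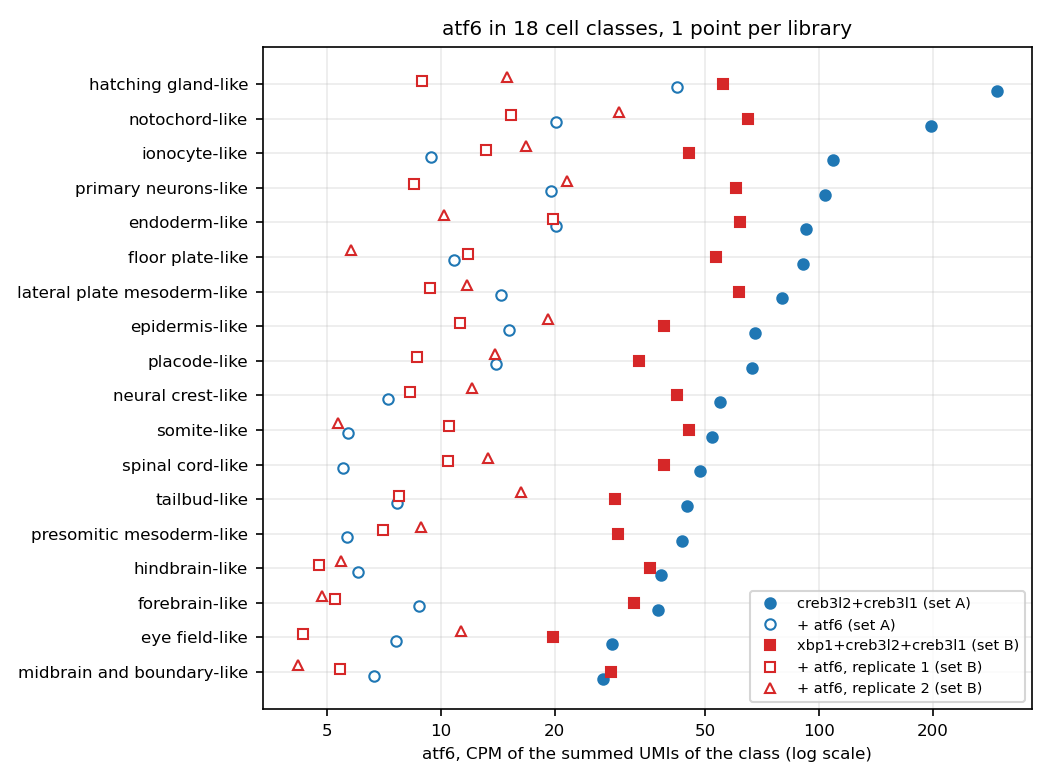
Level of atf6 (CPM of the summed counts, log scale) in each tissue class and each of the 5 libraries; each point is 1 library. In all 18 classes the atf6-targeted libraries lie below the control library of their set.

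Hatching gland-like cells held the most atf6 in set A. There atf6 was at 295.2 CPM in the control and 42.0 CPM with atf6 targeted, and in set B at 55.8 CPM against 8.94 and 14.97 CPM (log2 fold change -2.61, SE 0.26, adjusted p = 7.74e-05, edgeR). An atf6 UMI was found in 73 of 83 hatching gland-like cells of the set A control and in 28 of 59 once atf6 was targeted. In set B it was found in 39 of 89 cells of the control and in 7 of 45 and 9 of 64 quadruple cells. Free RNA in the droplets also gives such UMIs, and no class lacking atf6 was at hand to measure it, so these are numbers of cells with a UMI and not of cells that express atf6. In notochord-like cells atf6 was at 197 CPM against 20.1 CPM in set A, and at 64.8 CPM against 15.4 and 29.6 CPM in set B (log2 fold change -2.38, SE 0.37, adjusted p = 0.148, edgeR).

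The other targeted factors differed less within the pairs. Over all cells xbp1 was at 350 and 319 CPM in set A, and at 163, 119 and 195 CPM in set B (log2 fold change -0.18, SE 0.19, adjusted p = 1, edgeR). The transcript of creb3l2 was at 4.67 and 5.21 CPM in set A, and at 4.28, 6.91 and 6.44 CPM in set B, while creb3l1 stayed between 10.1 and 13.7 CPM in all 5 libraries. A tag count at the 3′ end need not fall when a coding exon is edited, so for these genes it does not check the label.

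Apart from atf6, no gene passed the test over all cells. That is 1 of 16866 genes, or 0.00593%; 447 genes had an unadjusted p below 0.05, and DESeq2 called 2 genes, atf6 and h1m. Among the 6604 genes with a mean of at least 10 CPM, atf6 (0.0151%) was also the single gene that differed at least 2-fold the same way in the set A pair and in both set B comparisons, and none differed 2-fold in opposite ways in the 2 sets. The germ cell gene h1m lay just outside, with a log2 ratio of -0.998 in quadruple replicate 1. Both set B comparisons share 1 control library. Over all genes tested, 15.9% were higher and 16.1% lower in all 3 comparisons. Across the 6604 genes the log2 ratio of the set A pair and the mean log2 ratio of set B had a Pearson correlation of 0.19, a description over genes that are not independent replicates. Fitted separately among all 16 libraries, the set A pair gave 0 genes below an adjusted p of 0.05 (edgeR, 40 at unadjusted p below 0.05) and the set B pair 1, the clone-named gene ct868708.1 (0.0054%). Their difference gave 0 (edgeR, 113 unadjusted); DESeq2 was not run on these separate contrasts.

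**Figure D2:**
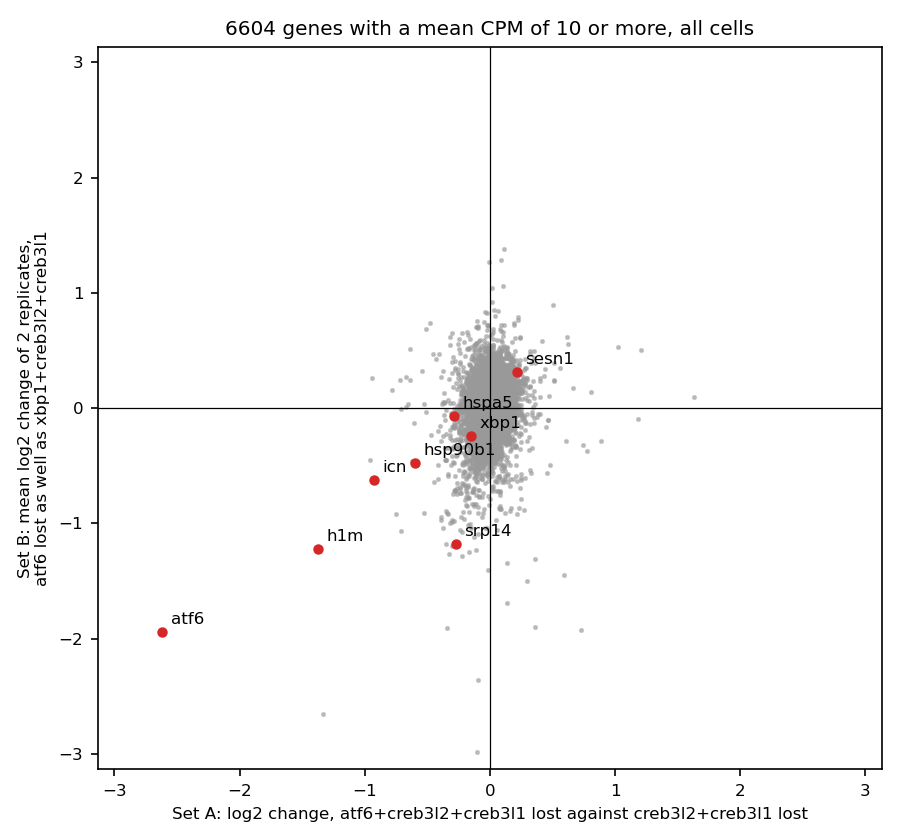
Log2 ratio of atf6-targeted to control library in set A (x axis) and mean log2 ratio of the 2 quadruple libraries to their control in set B (y axis), over all cells, for the 6604 genes with a mean of at least 10 CPM (grey points), with 8 genes named in red. Atf6 lies farthest to the left, at -2.62 in set A and -1.95 in set B, and most genes lie near 0 in both.

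ER chaperones, the targets for which ATF6 is best known, were tested as a list of 36 genes, of which 34 passed the filter on low counts. None passed the test (0 of 34; edgeR, 2 at unadjusted p below 0.05; DESeq2 also 0), 23 had a higher and 11 a lower fitted level, and the median log2 fold change was 0.07 against 0.01 over all genes. Hspa5 (BiP), the main luminal chaperone, was at 113 CPM in the set A control and 93.9 CPM without atf6, and at 47.9 CPM in the set B control against 42.9 and 58.8 CPM in the quadruple libraries (log2 fold change -0.16, SE 0.17). The quadruple values lie on both sides of their control.

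The calcium-binding chaperone calr was at 41.9 and 39.6 CPM in set A, and at 20.5, 20.7 and 32.6 CPM in set B (log2 fold change 0.08, SE 0.20). The disulfide isomerase pdia4 was at 6.74 and 6.02 CPM in set A, and at 4.23, 4.14 and 4.08 CPM in set B (log2 fold change -0.18, SE 0.21). The nucleotide exchange factor hyou1 was at 47.8 and 43.2 CPM in set A, and at 37.7, 44.1 and 51.0 CPM in set B (log2 fold change 0.04, SE 0.17). None of these 3 showed a difference larger than its error.

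Hsp90b1 (GRP94), the ER form of HSP90, had the smallest p of the chaperones. It was at 27.1 CPM against 18.1 CPM in set A, and at 15.1 CPM against 10.8 and 13.2 CPM in set B (log2 fold change -0.53, SE 0.17, adjusted p = 1, edgeR). The groups did not overlap within either set, and over all genes tested 16.1% were lower in all 3 comparisons. The same order was seen in 11 of 18 classes, which come from the same 5 libraries and are not repeats.

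The same chaperones had far higher levels under an active form of Atf6 in another experiment of the series. At 8 hpf, xbp1 crispants injected with 40 pg of mRNA for atf6-N, the cleaved form, were compared with xbp1 crispants that received mCherry mRNA, with 1 library each and hence no test. Hsp90b1 was at 29.1 CPM with mCherry (exact Poisson 95% interval 27.8 to 30.5, counting error only) and at 6562 CPM with atf6-N (6543 to 6582). Hspa5 was at 34.3 and 4586 CPM, hyou1 at 20.7 and 2075 CPM, calr at 16.9 and 1755 CPM, and pdia4 at 6.71 and 764 CPM. Of the 535 genes other than atf6 itself that were at least 2-fold higher with atf6-N (CPM + 1 scale) and reached 10 CPM, 522 were tested here over all cells. None of them passed the test (edgeR), 185 had a lower and 337 a higher fitted level after loss of atf6, and 44 (8.43%) were lower in all 3 comparisons against 16.1% of all genes. Higher in all 3 were 110 of the 522, against 15.9% of all genes. The median log2 fold change of the 522 was 0.06. Of the same list 1 of 369 genes tested in hatching gland-like cells was called (edgeR), hsp70.3, described below. In notochord-like cells 0 of 400 were.

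The remaining steps of the secretory pathway gave no call either. ER-associated degradation, which returns misfolded proteins to the cytosol, had 19 genes tested, 10 with a higher and 9 with a lower fitted level (0 called; edgeR, 0 at unadjusted p below 0.05). N-glycosylation had 20 genes tested, 6 higher and 14 lower (0 called, 1 unadjusted), and ER–Golgi transport 59, 39 higher and 20 lower (0 called, 0 unadjusted). All secretory lists together held 154 tested genes with a median log2 fold change of 0.02. Of the list on protein translocation, 16 of 22 genes had a lower fitted level (0 called, 1 unadjusted). In all 3 comparisons 8 of the 22 were lower, against 16.1% of all genes. DESeq2 called no gene of any of these lists over all cells.

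Srp14, a subunit of the signal recognition particle that brings ribosomes to the ER, had the smallest p of the translocation list. It was at 25.3 and 21.2 CPM in set A, and at 63.7 CPM in the set B control against 29.9 and 32.3 CPM in the quadruple libraries (log2 fold change -0.80, SE 0.21, adjusted p = 1, edgeR). The value of 63.7 CPM was the highest of all 16 libraries, the next being 41.4 CPM. With atf6-N srp14 was at 31.2 CPM against 33.2 CPM with mCherry.

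Lists for other stress responses were tested alongside. The PERK and ATF4 arm, the branch that slows translation and raises amino acid metabolism, had 21 of 32 tested genes with a higher fitted level (0 called; edgeR, 2 unadjusted). Of 23 p53 targets, which crispant embryos can raise, 15 were higher and 8 lower (0 called, 0 unadjusted). In all 3 comparisons 8 of them were higher, against 15.9% of all genes. Of 23 cytosolic heat shock genes, 17 were lower (0 called, 5 unadjusted, median log2 fold change -0.22). Sterol and lipid synthesis genes had 16 of 26 higher (0 called, 1 unadjusted). DESeq2 gave 0 for each of these lists.

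Below the threshold, h1m and ripply2 had small p-values among the genes chosen for the same direction in both sets. H1m, a germ cell linker histone, was at 17.1 and 6.64 CPM in set A, and at 14.3, 7.56 and 5.96 CPM in set B (log2 fold change -1.28, SE 0.20, adjusted p = 0.373, edgeR; called by DESeq2). Germ cell-like cells numbered 18 and 8 in set A, and 23, 7 and 10 in set B, or 0.415% and 0.180% of cells in set A, and 0.546%, 0.235% and 0.561% in set B. Quadruple replicate 2 had a share near that of its control but the lowest h1m level of set B. Its germ cell-like cells had a median of 1589.5 UMIs, near the minimum for keeping a barcode. Only 3 of these 10 cells had at least 2000 UMIs. With that minimum the shares were 0.307% and 0.115% in set A, and 0.441%, 0.179% and 0.195% in set B. They were then lower in every targeted library, from 3 to 18 cells per library. The part of germ cell-like cells in the h1m level was not tested. Nanos3, another germ cell gene and named after its values were seen, was at 60.3 and 24.2 CPM in set A, and at 27.3, 33.5 and 0.644 CPM in set B, where quadruple replicate 2 stands apart. Ripply2, a repressor that acts where somites form, was at 7.39 and 13.0 CPM in set A, and at 3.72, 7.46 and 8.67 CPM in set B (log2 fold change 0.89, SE 0.20, adjusted p = 1, edgeR).

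Collagen genes of the notochord sheath and cartilage also had higher values without atf6 over all cells. Of 27 tested genes of notochord cargo, 12 were higher and 2 lower in all 3 comparisons, against 15.9% and 16.1% of all genes. None was called (edgeR, 5 unadjusted, and DESeq2 0), and the median log2 fold change was 0.15. Col9a2 was at 3.72 and 6.28 CPM in set A, and at 3.15, 6.20 and 5.61 CPM in set B (log2 fold change 0.76, SE 0.22, adjusted p = 1, edgeR). Col2a1a was at 31.3 and 36.1 CPM in set A, and at 11.7, 21.96 and 20.4 CPM in set B. The share of notochord-like cells was in the same order, at 3.27% and 3.56% of cells in set A, and at 3.51%, 4.91% and 5.27% in set B, and its part in these levels was not tested.

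Set A holds 2 further pairs that differ by loss of atf6, tyr-targeted control embryos against atf6 crispants and xbp1 crispants against xbp1+atf6 crispants, and these were added with a term for each pair (9 libraries, 4 residual degrees of freedom). Over all cells atf6 was again the single gene called, 1 of 17416 or 0.00574% (log2 fold change -2.39, adjusted p = 1.2e-04, edgeR, 670 genes at unadjusted p below 0.05). All 5 comparisons were higher for 4.01% of genes and lower for 4.61%. Ripply2 was higher in 5 of 5, at 7.71 and 13.3 CPM in tyr and atf6 embryos and at 7.80 and 14.4 CPM in xbp1 and xbp1+atf6 embryos (log2 fold change over the 4 pairs 0.83, SE 0.12, adjusted p = 0.165, edgeR). The same direction in the first 3 comparisons was a condition of choosing ripply2 and h1m. For both genes only the 2 added pairs are new, and the fit reuses the 5 libraries. Hsp90b1 was lower in 5 of 5, with 19.8 and 18.4 CPM and 8.78 and 6.21 CPM in the added pairs. Of the translocation list, sec61g, sec62, srp14 and srp9 were lower in 5 of 5. Among 29 tested genes of notochord cargo 0 were lower and 8 higher in 5 of 5, which were col11a1a, col2a1a, col2a1b, col8a1a, col9a1b, col9a2, col9a3 and plod2. Other lists leaned higher too. Of 23 p53 targets 6 were higher and 0 lower in 5 of 5, and of 20 cell cycle genes 5 and 0. Of 59 ER–Golgi transport genes 7 were higher and 2 lower. H1m was at 12.5 and 12.6 CPM in tyr and atf6 embryos and at 10.6 and 8.60 CPM in xbp1 and xbp1+atf6 embryos; with TMM scaling, which puts the first of these log2 ratios at -0.07, it was lower in 5 of 5. None of these except atf6 passed the test.

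**Figure D3:**
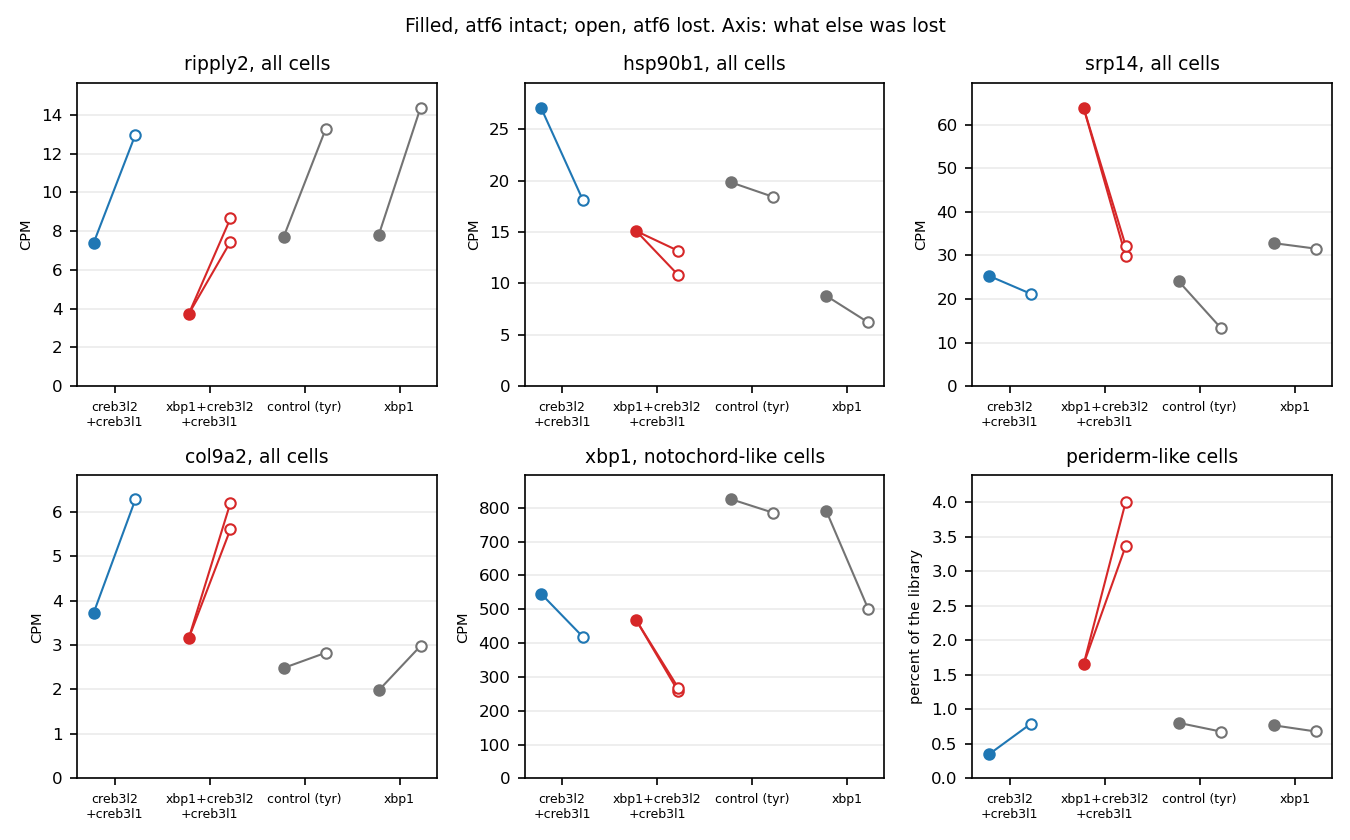
Levels in the 4 pairs that differ by loss of atf6, as CPM over all cells for ripply2, hsp90b1, srp14 and col9a2, CPM in notochord-like cells for xbp1, and percent of cells for the periderm-like class. Each point is 1 library, filled with atf6 intact and open with atf6 lost; lines join a control to its targeted library, and colours mark set A (blue), set B (red) and the added pairs (grey). Ripply2 was higher in every targeted library, from 7.71 to 13.3 CPM and from 7.80 to 14.4 CPM in the added pairs.

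Hatching gland-like cells had 10 called genes, among them atf6, HSP70 genes and regulators of the early ectoderm. These cells were 1 cluster with he1.1, he1.2 and ctslb, the genes of the hatching enzymes and a cathepsin, among its leading genes, and numbered 83 and 59 cells in set A and 89, 45 and 64 in set B. Their summed hatching gland markers were at 41536 and 41962 CPM in set A, and at 40176, 30216 and 40346 CPM in set B, lowest in quadruple replicate 1. The 10 calls were made among 7787 genes, or 0.128%, with 2 higher (szl, ved) and 8 lower (atf6, fabp7b, fp236812.1, hsp70.1, hsp70.2, hsp70.3, hsp70l, icn); 331 had an unadjusted p below 0.05, and DESeq2 called 3 (atf6, icn and szl). Across genes with a mean of at least 10 CPM in the class the ratios of both pairs had a Pearson correlation of 0.0747.

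Of these, 4 are inducible HSP70 genes, the cytosolic chaperones of the heat shock response, and their signal lay in set B. Hsp70l was at 448 CPM in xbp1+creb3l2+creb3l1 embryos (1003 UMIs) and at 2.98 and 14.97 CPM in the quadruple libraries (4 and 28 UMIs). In set A it was counted 1 time in the control and 0 times with atf6 targeted, below the level of 3 UMIs, which corresponds to 1.34 to 2.23 CPM in these classes. The level in set A was thus too low in both libraries to show a direction, and the fitted log2 fold change of -5.70 (SE 0.42, adjusted p = 2.97e-06, edgeR) rests on set B.

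Hsp70.3 had the highest level of the 4, at 607 CPM in the set B control against 11.2 and 87.2 CPM in the quadruple libraries, and at 7.69 and 6.104 CPM in set A (adjusted p = 0.0331, edgeR). Hsp70.2 was at 202 CPM against 5.21 and 17.6 CPM (adjusted p = 3.56e-05), and hsp70.1 at 122 CPM against 0.745 and 14.97 CPM (adjusted p = 0.0038); neither passed 0.481 CPM in set A. The calls did not hold when the xbp1+creb3l2+creb3l1 library was left out, which leaves set B without a control. The log2 fold change of hsp70l was then -3.06, a value that rests on 1 UMI against 0 in set A.

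A minority of hatching gland-like cells carried the signal. In the xbp1+creb3l2+creb3l1 library 95.2% of all hsp70l UMIs were in hatching gland-like cells, and 18 of 89 of these cells (20.2%) had one. The highest cell held 316 of the 1003 UMIs, and 10 cells held at least 5. Among quadruple cells 2 of 45 and 3 of 64 had an hsp70l UMI, and 25 of the 28 UMIs of replicate 2 were in 1 cell. Epidermis-like cells had an hsp70l UMI in 0.188% to 0.794% of cells in the 5 libraries.

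The other pair that lacked xbp1 went the opposite way. Hsp70l was at 188 CPM in the hatching gland-like cells of xbp1 crispants and at 358 CPM in xbp1+atf6 crispants, with a UMI in 15 of 87 and 20 of 73 cells. Hsp70.2 was at 166 and 318 CPM, hsp70.1 at 40.2 and 108 CPM, and hsp70.3 at 421 and 686 CPM. In the 11 libraries with xbp1 intact hsp70l did not pass 1.85 CPM. Hsp70.3 did reach 49.3 CPM (80 UMIs, in 38 of 83 cells) in atf6 crispants, where xbp1 is intact, against 5.11 CPM (7 UMIs, in 6 of 72 cells) in tyr embryos. The difference between the set B pair and this xbp1 pair was -6.60 on the log2 scale for hsp70l (SE 0.94, adjusted p = 0.820, edgeR over 9610 genes in 16 libraries), and no gene passed the adjusted threshold for it (0 of 9610, 179 unadjusted). In the 4-pair fit hsp70l was not called (log2 fold change -2.85, adjusted p = 0.662).

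**Figure D4:**
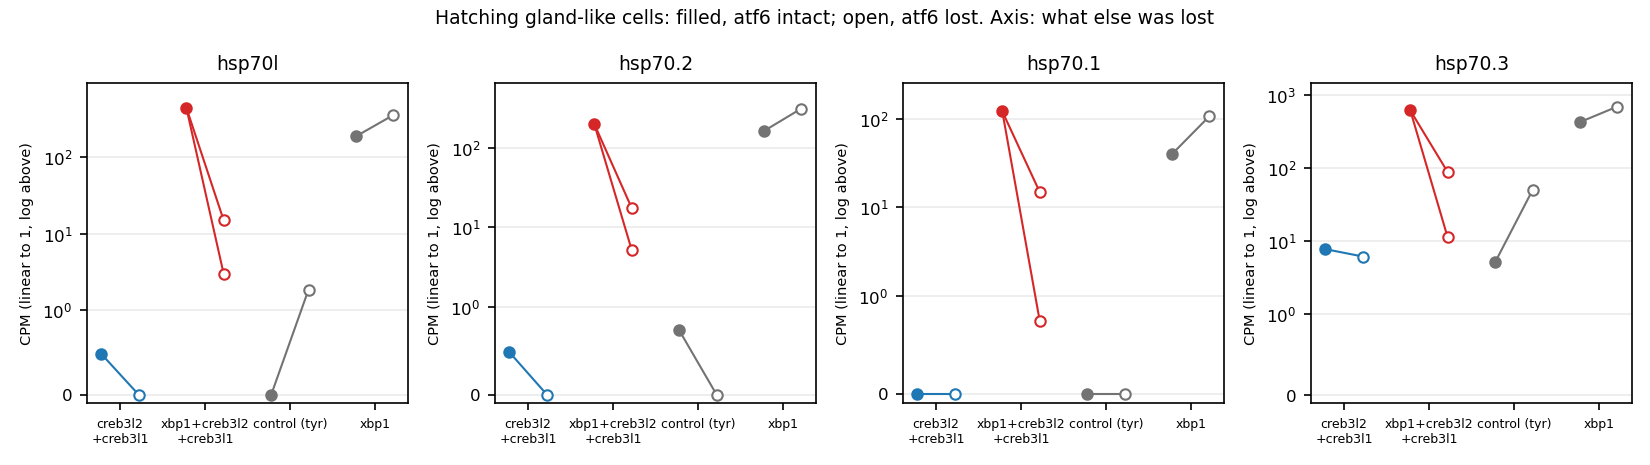
Levels (CPM, hatching gland-like cells) of 4 HSP70 genes in the 4 pairs that differ by loss of atf6. The axis is logarithmic above 1 CPM and linear below; points are single libraries, filled with atf6 intact and open with atf6 lost, and lines join a control to its targeted library. The xbp1+creb3l2+creb3l1 library stands at 448 CPM for hsp70l against 2.98 and 14.97 CPM in the quadruple libraries, while the xbp1 pair of set A lies at 188 and 358 CPM.

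Higher in hatching gland-like cells were szl and ved, genes of the ventral BMP program in the gastrula. Szl (sizzled, a secreted inhibitor of chordin-cleaving proteases) was at 0.481 and 6.104 CPM in set A, and at 0.893, 33.5 and 33.2 CPM in set B (log2 fold change 4.55, SE 0.56, adjusted p = 0.00105, edgeR). Ved, a homeodomain repressor, was at 14.9 and 78.7 CPM in set A, and at 1.79, 81.2 and 48.1 CPM in set B (log2 fold change 3.22, SE 0.43, adjusted p = 0.00251). Control and targeted libraries did not overlap for either gene, and 17.1% of all genes in this class were higher in all 3 comparisons. Szl had 1 and 2 UMIs in the controls of set A and set B, both below the level of 3 UMIs. Ved had 31 and 4 UMIs in these controls. A few cells held most of the counts of both genes. With atf6 intact, ved also reached the levels of the targeted libraries. In the 11 libraries outside these pairs ved ran from 5.85 to 125.4 CPM and szl from 0 to 19.7 CPM, and the tyr library of set B had ved at 120.4 CPM with a UMI in 69 of 169 cells.

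In quadruple replicate 2, 60 of the 62 szl UMIs were in 1 cell, and in replicate 1, 27 of 45. For ved the highest cell held 18 of 31 and 74 of 116 UMIs in set A, both cells marked as likely doublets, and 62 of 109 and 45 of 90 in the quadruple libraries. In each quadruple library the same cell was highest in szl and in ved, and its hatching gland markers were below the class median, at 12872 CPM against 28098 and at 23853 CPM against 35199. Cells with a ved UMI numbered 8 of 83 and 9 of 59 in set A, and 4 of 89, 5 of 45 and 9 of 64 in set B. Ved was also called in the 4-pair fit (log2 fold change 2.88, SE 0.35, adjusted p = 0.00224), as was the keratin gene cyt1 (1.65, SE 0.23, adjusted p = 0.00801), together with atf6 3 of 8128 genes or 0.0369%.

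Cyt1 was at 15.4 and 34.6 CPM in set A, and at 5.80, 38.7 and 36.4 CPM in set B (log2 fold change 1.78, SE 0.34, adjusted p = 0.066, edgeR). The ectoderm factor tfap2a was at 3.37 and 14.2 CPM in set A, and at 2.23, 13.4 and 13.4 CPM in set B. Both were higher in every targeted library, as was spry4, an inhibitor of FGF signalling. That direction was a condition of choosing these 3 genes, and 17.1% of all genes in this class had it. Beside them, summed epidermis markers in hatching gland-like cells were at 2606 and 2547 CPM in set A, and at 4828, 5242 and 5708 CPM in set B, with col7a1, krtt1c19e and lamb4 at 0. Summed periderm markers were at 1951 and 1929 CPM, and at 1662, 1664 and 1796 CPM. Neither sum differed in set A, and the part of other cell types in these levels was not tested.

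Of the remaining lower genes icn was the most abundant. Icn, a calcium-binding S100-type protein, was at 409 and 216 CPM in set A, and at 517, 220 and 134 CPM in set B (log2 fold change -1.41, SE 0.24, adjusted p = 0.0275, edgeR; called by DESeq2). In the added pairs it was lower in atf6 crispants (316 against 767 CPM in tyr embryos) and not in xbp1+atf6 crispants (1033 against 772 CPM). Lower icn was also seen outside this class, though it was called in this class alone (edgeR and DESeq2). Of the 18 tested classes, 8 had icn lower in every targeted library than in the control of its set, and 0 had it higher. Of all genes, 16.7% were lower in all 3 comparisons in hatching gland-like and 14% in notochord-like cells. The classes come from the same 5 libraries and are not repeats. Fabp7b, a fatty acid-binding protein, was at 24.5 and 13.6 CPM in set A, and at 79.9, 29.0 and 28.3 CPM in set B (log2 fold change -1.42, SE 0.26, adjusted p = 0.0456). The clone-named gene fp236812.1 was at 4.81 and 1.36 CPM, and at 57.1, 15.6 and 13.4 CPM (adjusted p = 0.00811). In the latter, the set A values rest on few counts.

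The secretory machinery of hatching gland-like cells gave no call. Of 140 tested genes of the secretory lists 54 had a higher and 86 a lower fitted level (0 called; edgeR, 7 unadjusted; DESeq2 0), with a median log2 fold change of -0.06. Protein translocation leaned furthest, with 20 of 22 genes lower and 7 lower in all 3 comparisons (0 called, 2 unadjusted; median log2 fold change -0.17); 16.7% of all genes in this class were lower in all 3. Sec61g, a subunit of the translocation channel, was at 7884 and 7124 CPM in set A, and at 1851, 1546 and 1089.8 CPM in set B (log2 fold change -0.47, SE 0.21, adjusted p = 1, edgeR). The quadruple libraries lay below their control, by less than the distance between the sets.

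None of the hatching gland's products passed the test. Ctslb was at 17557 and 17608 CPM in set A, and at 17335, 12551 and 16169.7 CPM in set B, the lowest in quadruple replicate 1. The hatching enzyme gene he1.1 had a log2 fold change of -0.21 (SE 0.20) and ctslb of -0.28 (SE 0.20). Xbp1 was at 4794 and 5428 CPM in set A, and at 2595, 1464 and 2115 CPM in set B (log2 fold change -0.36, SE 0.23, adjusted p = 1).

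In notochord-like cells no gene passed the edgeR test (0 of 9061 or 0%, 245 at unadjusted p below 0.05), while DESeq2 called 3, atf6, copz2 and rcn3. The class held 142 and 158 cells in set A, and 148, 146 and 94 in set B, from 3 clusters. Noto and twist2 led the first of them (715 cells over the 16 libraries), loxl5b and emilin3a were among the leading genes of the second (563 cells), and loxl5b, col8a1a and twist2 among those of the largest (751 cells). The largest had a median of 2605 UMIs against 16677 and 15954 in the others, and 15.7% of its cells were marked as likely doublets; it held 29.1% to 38.6% of the class in the 5 libraries. Over the whole class of 3 clusters, summed notochord markers were at 9693 and 8552 CPM in set A, and at 6317, 7978 and 6807 CPM in set B. The correlation of both pairs across genes with a mean of at least 10 CPM was -0.0238.

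Rcn3 (reticulocalbin 3), a calcium-binding protein of the ER lumen, had the smallest p. It was at 7.89 and 48.7 CPM in set A (12 and 92 UMIs), and at 1.22, 32.9 and 30.2 CPM in set B (3, 62 and 50 UMIs). The targeted libraries lay above both controls, and the log2 fold change was 3.33 (SE 0.43, adjusted p = 0.0518, edgeR). In this class 14.5% of all genes were higher in all 3 comparisons, a direction by which genes were chosen for naming. With no filter on low counts and with likely doublets removed its adjusted p was below 0.05 (edgeR). It did not pass in the fit of 4 pairs or in that of all 16 libraries. In the latter the smallest adjusted p of any gene in this class was 0.297 (edgeR). With 1 of the 5 libraries left out the log2 fold change of rcn3 ran from 2.61 to 4.50. The other 11 libraries had between 174 and 587 CPM, so that all 5 libraries here were low and the targeted ones less so.

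Part of the notochord-like cells accounted for rcn3. Cells with an rcn3 UMI numbered 11 of 142 (7.75%) and 36 of 158 (22.8%) in set A, and 3 of 148 (2.03%), 15 of 146 (10.3%) and 9 of 94 (9.57%) in set B. Cells with at least 5 rcn3 UMIs numbered 0 and 5 in set A and 0, 5 and 4 in set B, and none of them was marked as a likely doublet. They held 41.3%, 74.2% and 88.0% of the rcn3 UMIs of the targeted libraries, and 4, 5 and 4 of them also had a UMI of copz2. Their median total UMIs were 12522, 24102 and 29248, against 12305.5, 12071 and 16535 for the whole class. An atf6 UMI was found in 1 of 5, 1 of 5 and 4 of 4 of them. In the whole class it was found in 28 of 158, 18 of 146 and 18 of 94 cells. The part of depth and of remaining atf6 was not tested. Outside these 5 libraries between 9.89% and 56.1% of notochord-like cells had at least 5 rcn3 UMIs.

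Copz2, a coat protein subunit of vesicles that return from the Golgi to the ER, was at 5.26 and 21.2 CPM in set A, and at 1.22, 34.4 and 18.1 CPM in set B (log2 fold change 3.03, SE 0.56, adjusted p = 0.508, edgeR; called by DESeq2). The other 11 libraries had between 124 and 358 CPM. With creb3l1 and creb3l2 not targeted together, neither gene followed loss of atf6 in 1 direction. Rcn3 was at 546 and 435 CPM in tyr and atf6 embryos and at 352 and 546 CPM in xbp1 and xbp1+atf6 embryos, and copz2 at 358 and 334 CPM and at 302 and 311 CPM. In the 4-pair fit rcn3 had a log2 fold change of 1.00. That fit called 1 of 9040 genes in this class, atf6 (0.0111%, 399 at unadjusted p below 0.05, edgeR). With atf6-N at 8 hpf rcn3 was at 357 CPM against 1.68 CPM and copz2 at 14.1 CPM against 1.93 CPM, over all cells.

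**Figure D5:**
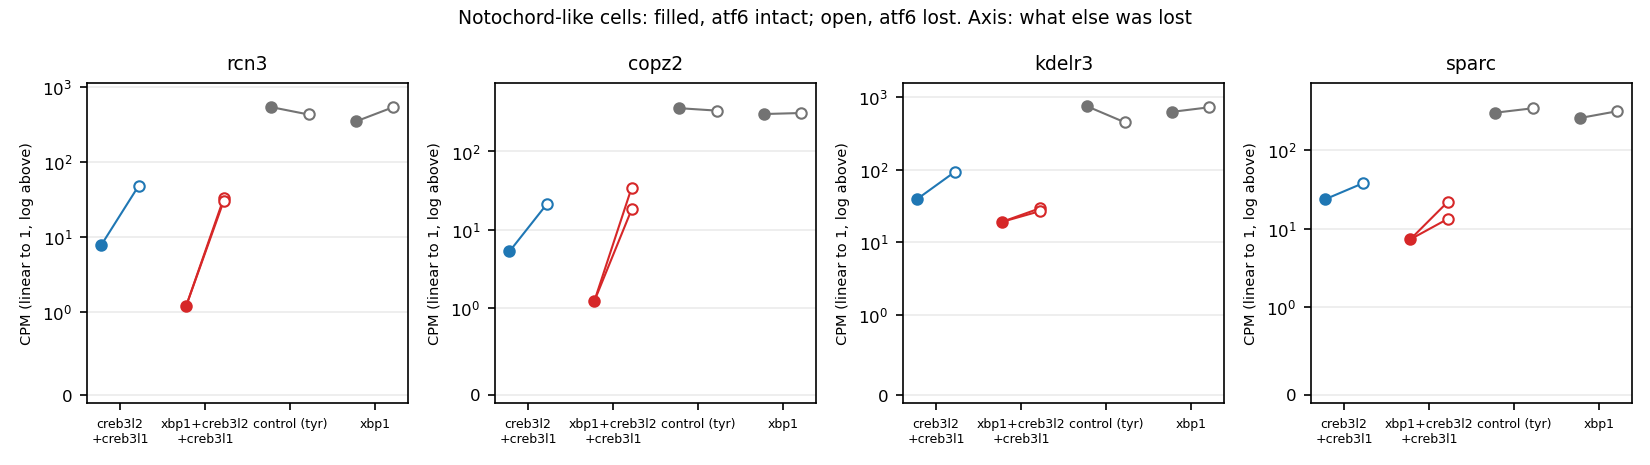
Levels (CPM, notochord-like cells) of rcn3, copz2, kdelr3 and sparc in the 4 pairs that differ by loss of atf6. The axis is logarithmic above 1 CPM and linear below. Points are single libraries, filled with atf6 intact and open with atf6 lost, and lines join a control to its targeted library. For rcn3 and copz2 the targeted libraries lie above the control of their set, for rcn3 at 48.7 CPM against 7.89 CPM in set A.

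Some other ER and transport genes of notochord-like cells were also higher in all 3 comparisons, as were 14.5% of all genes in this class. The KDEL receptors return ER proteins that escaped to the Golgi. Kdelr3 was at 39.4 and 92.7 CPM in set A, and at 19.0, 29.1 and 26.6 CPM in set B (log2 fold change 0.80, SE 0.27, adjusted p = 1, edgeR), against 195 to 743 CPM in the other 11 libraries. The share of cells with a kdelr3 UMI was higher in set A (31.7% and 41.1%) but lower in set B (24.3%, 13.7% and 18.1%), where 4 and 3 quadruple cells held 49.1% and 52.3% of the UMIs. Kdelr2b was at 256 and 322 CPM in set A, and at 92.4, 146 and 161 CPM in set B, and was higher in 5 of 5 comparisons of the 4 pairs, where 3.89% of genes in this class were and 4.39% were lower. Gmppb, which makes GDP-mannose for glycosylation, was at 32.9 and 43.4 CPM, and at 10.9, 27.0 and 36.3 CPM. None of them passed the test.

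By list, ER chaperones had 22 of 31 tested genes higher and 8 higher against 0 lower in all 3 comparisons (0 called; edgeR, 0 unadjusted; DESeq2 0), with a median log2 fold change of 0.18. ER–Golgi transport had 37 of 54 higher, 25 in all 3 comparisons, where 14.5% of all genes were (0 called by edgeR, 4 unadjusted; DESeq2 1, copz2). All secretory lists together had 84 of 139 higher and a median log2 fold change of 0.07. Protein translocation again leaned lower, with 15 of 22. Sparc, a matrix glycoprotein, was at 23.7 and 37.6 CPM in set A, and at 7.29, 13.2 and 21.8 CPM in set B (log2 fold change 0.88, SE 0.33, adjusted p = 1).

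Xbp1 was lower in the notochord-like cells of every targeted library. It was at 546 and 418 CPM in set A, and at 468, 258 and 269 CPM in set B (log2 fold change -0.72, SE 0.20, adjusted p = 1, edgeR). The added pairs had 825 and 786 CPM, and 791 and 502 CPM, so that it was lower in 5 of 5 (log2 fold change over the 4 pairs -0.60, SE 0.13, adjusted p = 0.548). In the second of these and in set B the xbp1 gene was itself edited.

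Keratins stood among the higher genes of this class too, though none passed the test. Being higher in all 3 comparisons was a condition of choosing cyt1 and krt4, and 14.5% of all genes in this class were. Cyt1 was at 11.8 and 45.0 CPM in set A, and at 20.3, 44.0 and 51.4 CPM in set B, and krt4 at 18.4 and 52.5 CPM, and at 20.3, 76.3 and 44.2 CPM. The periderm marker list itself holds cyt1 and krt4, so its sum rises with them by construction. In notochord-like cells this sum was at 302 and 464 CPM in set A and at 126, 271 and 186 CPM in set B. The part of periderm cells in these levels was not tested. Neither keratin was higher in both added pairs.

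Periderm-like cells, the outer covering layer marked by krt17, krt5 and anxa1c, were the class whose share changed. They made up 0.346% of cells (15 cells, exact 95% interval 0.194 to 0.570) in the set A control and 0.788% (35 cells, 0.550 to 1.09) with atf6 targeted. In set B they made up 1.66% (70 cells, 1.298 to 2.096) in the control and 4.00% (119 cells, 3.33 to 4.77) and 3.36% (60 cells, 2.58 to 4.31) in the quadruple libraries. The share was higher in every targeted library (log2 fold change 1.17, SE 0.24, adjusted p = 2.6e-04, edgeR on cell numbers), 1 of 22 classes and unnamed cells or 4.55%. The test was lost when either set A library or the set B control was left out. Other pairs did not show it, with 0.803% and 0.679% in tyr and atf6 embryos and 0.768% and 0.679% in xbp1 and xbp1+atf6 embryos. The other set B libraries ranged from 2.20% to 4.41%, and the intervals cover counting error only. Median UMIs of the larger periderm-like cluster were 1955, near the minimum of 1000, so that the threshold on barcodes can set this share; with at least 2000 UMIs the log2 fold change was 1.00 (adjusted p = 0.0335).

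In the 16 other tested classes 23 genes were called in 136918 tests, or 0.0168%, with 3 higher and 20 lower, and 12 of the 23 were atf6. DESeq2 called 14. No gene was called by edgeR in endoderm-like (160 unadjusted), eye field-like (227), ionocyte-like (183) or somite-like cells (66), where DESeq2 called 0, 0, 0 and 2. The clone-named cabz01079280.1 was called lower in the epidermis-, neural crest-, presomitic mesoderm- and spinal cord-like classes. Over all cells it was at 1.00 and 0.731 CPM in set A, and at 36.9, 3.93 and 3.35 CPM in set B, a difference made by 1 library. With atf6-N at 8 hpf it was at 50.6 CPM against 4.00 CPM with mCherry, over all cells.

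Floor plate-like cells, the ventral midline of the neural tube, had 8 of 6340 genes called (0.126%), from 47 and 60 cells in set A and 52, 35 and 24 in set B, whereas DESeq2 called 1. Lft2, a Nodal inhibitor, was at 143 and 100 CPM in set A, and at 774, 141 and 96.8 CPM in set B. Hapln1a, a matrix link protein, was at 52.4 and 184 CPM, and at 4.36, 46.0 and 36.8 CPM, and the dorsal neural factor pax3a at 1.75 and 21.7 CPM, and at 3.27, 35.5 and 40.7 CPM. Pax3a was higher in all targeted libraries than in both controls, and hapln1a than in the control of its own set. In this class 1002 of 6340 genes were higher in all 3 comparisons. Pax3a had 1 and 3 UMIs in the controls of set A and set B, and 16, 27 and 21 in the targeted libraries. Sst1.2, a somatostatin, was at 36.7 and 142 CPM, and at 5.45, 19.7 and 38.7 CPM. In the set B control hapln1a had 4 UMIs and sst1.2 had 5. The remaining 3 called lower besides atf6 were cyp2aa8, cu457819.1 and cu459186.2.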

How the data were processed

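Single-cell RNA sequencing of whole embryos was done with the 10x Genomics 3′ V3 chemistry, per the labels. The authors deposited raw UMI counts per gene and barcode. Per the file headers, Cell Ranger 3.1.0 made the set A matrices and 6.1.2 those of set B. The set letters are those of the deposited files. The genome build, the annotation and the rule for calling cells are not given in the sources used here. The feature table had 27597 features and 26847 symbols, and features with 1 symbol were summed.

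Barcodes with at least 1000 UMIs and at most 10% mitochondrial UMIs were kept. The automatic threshold of scrublet marked almost none as doublets in most libraries, so the highest scores (0.8% per 1000 barcodes) were marked; they were kept in the main counts and removed in an alternative. The 64631 cells of the 16 libraries at 12 hpf were clustered in scanpy 1.11.5 with Python 3.11.15 (2000 variable genes, 40 principal components, 15 neighbours, Leiden resolution 2). The targeted genes, mitochondrial and ribosomal protein genes and the genes of the secretory and stress lists were left out. Genes only on the lists of hatching gland cargo, notochord cargo, muscle differentiation, cell cycle, ribosomal stress and growth, or sterol and lipid synthesis could enter. Classes are thus not independent of those genes. Of 56 clusters 45 were named from at least 3 markers, into 21 classes; 18.57% of cells stayed unnamed. The labels give whole embryos, so names are those of marker patterns. Classes with fewer than 20 cells in any of the 5 libraries were not tested for genes.

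Counts were summed per library and class and fitted in edgeR 4.0.16 (R 4.3.3; TMM scaling, filterByExpr, two-sided quasi-likelihood test, Benjamini-Hochberg adjustment, threshold 0.05) with terms for atf6 loss and for the set. This model assumes that the effect is shared by both sets, and its 2 residual degrees of freedom come from the quadruple replicates and from how far the sets differ in effect. DESeq2 1.42.0, library totals, no filter, a fit of 16 libraries with a term per group, leaving out each library and a minimum of 2000 UMIs were alternatives, and the fit of 4 pairs was added after seeing the data. Tested on simulated data with known changes, the main test recovered 49% of 2-fold and 96% of 4-fold changes over all cells. It recovered 32% and 93% in the hatching gland-like and 38% and 89% in the notochord-like class. False calls numbered 12, 2 and 3. The simulation gave all genes 1 dispersion, no difference between the sets and the same effect in both. These rates need not hold for the real libraries. Intervals of counts and shares are exact and cover counting error only. Named genes are the targeted genes, the smallest p-values in each direction among genes that changed the same way in all 3 comparisons, the smallest p-values of each list and called genes; hspa5, calr, pdia4, hyou1 and genes with values in both added pairs were named after their values were seen. The members and lists were chosen with earlier results of these data known.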

Additional observations from a re-analysis of the deposited data

Results flagged for a closer look

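In hatching gland-like cells 4 of the 5771 genes with a mean of at least 10 CPM differed at least 2-fold one way in set A and the other way in both quadruple libraries. The difference of the pairs, set B minus set A on the log2 scale, was -2.69 for dkk1b, -4.16 for lft2, 2.76 for mcm5 and -3.91 for mt2, each with an adjusted p of 1 in the 16-library edgeR fit. Dkk1b, a Wnt inhibitor, was at 49.5 and 106 CPM in set A, and at 163, 74.5 and 48.7 CPM in set B. Lft2, a Nodal inhibitor, was at 4.81 and 29.8 CPM, and at 64.7, 23.1 and 26.7 CPM.

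In notochord-like cells the same was seen, among 6921 genes with a mean of at least 10 CPM, for her15.2 (difference -2.59), her4.2 (-3.56), rbp7b (3.06) and rx3 (5.65), again with adjusted p of 1 (edgeR). Her15.2 and her4.2, targets of Notch signalling, were at 38.1 and 85.8 CPM and at 7.89 and 26.0 CPM in set A. In set B they were at 107, 40.3 and 46.0 CPM and at 21.1, 4.77 and 7.86 CPM. Rx3, an eye field marker, had 13 and 6 UMIs in set A, and 5, 13 and 134 in set B. Its highest level, 81.1 CPM, was in quadruple replicate 2. Summed eye field markers, rx3 among them, were at 57.2 and 97.0 CPM in set A, and at 28.8, 20.1 and 229 CPM in set B. The part of eye field cells in the rx3 level was not tested.

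The HSP70 genes of hatching gland-like cells were lower with atf6 targeted in set B and higher in the xbp1 pair of set A. The difference was -5.40 for hsp70.1 (adjusted p = 1), -5.15 for hsp70.2 (adjusted p = 0.820), -4.42 for hsp70.3 (adjusted p = 1) and -6.60 for hsp70l (adjusted p = 0.820), by edgeR over 9610 genes.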

How the results depend on the processing

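No paired analysis was possible because 3 of the 4 groups compared hold 1 library each, so that the groups share fewer than 2 replicate numbers. This concerns pairing by replicate number; the fits with a term for the set or for the pair match genotypes within a set.

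The count of called genes depended on the fit. Over all cells it was 1, against 2 with DESeq2, 3 with library totals, 98 with no filter on low counts and 0 with all 16 libraries. In hatching gland-like cells it was 10, against 3, 8, 54 and 0, with 17 when likely doublets were left out and 3 in the fit of 4 pairs. In notochord-like cells it was 0, against 3 with DESeq2 and 1 with no filter, without doublets or in 4 pairs. In the other classes it was 23, against 14 with DESeq2, 389 with no filter and 5 with 16 libraries. For the set B pair alone, no filter gave 3 in place of 1. Without a filter, genes with few counts were tested as well. The call this gave in notochord-like cells was rcn3, which the filter had kept. How many of the other added calls were genes with few counts is not given here.

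Leaving out 1 library left 1 residual degree of freedom, with a lone library assumed to vary like the others. Over all cells the count then ran from 0 (without quadruple replicate 1) to 75 (without creb3l2+creb3l1), with 73 without atf6+creb3l2+creb3l1 or quadruple replicate 2 and 3 without xbp1+creb3l2+creb3l1. It ran from 4 (without xbp1+creb3l2+creb3l1) to 75 in hatching gland-like, from 2 to 122 in notochord-like and from 36 to 442 in the other classes. The cause was not tested.

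The periderm-like call was lost with 16 libraries (log2 fold change 1.17, adjusted p = 0.271, edgeR; 0 classes called). Without 1 library it ran from 1.06 to 1.25, with 0 to 1 classes called. Leaving out 1 library turned the sign of creb3l1 (-0.094 to 0.19), calr (-0.082 to 0.23) and hyou1 (-0.15 to 0.20) over all cells, and of xbp1 (-0.74 to 0.14) in hatching gland-like cells. Hsp70.1 there ran from -4.02 to 0.00. All other named genes kept their direction in the 973 values of alternatives. These were computed for 85 combinations of a gene and a cell population, so that some genes count more than once. Apart from fits with 1 library left out, 25 of these values gained and 28 lost a call. Calls also changed with 1 library left out. Library depth limits the classes: a gene under 3 UMIs in a library shows no direction.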
